A study of Mus musculus with 8 samples.

Results

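Ifit1, Ifit2 and Ifit3 are the 3 mouse genes described here, taken by symbol and Entrez identifier (15957, 15958 and 15959) out of 18125 genes listed in 8 RNA sequencing libraries of macrophages. No measured value enters the rule. Each of the 8 groups holds 1 library, and all mice had the C57BL/6 background. In peritoneal macrophages, elicited with 1 mL of 4% thioglycollate and collected after 3 to 4 days, the groups were Slc6a8-/y cells (called KO) with IFN-gamma, KO cells left untreated, wild-type (WT) cells with IFN-gamma, and WT cells left untreated. IFN-gamma was given at 10 ng/mL over 12 hours. In bone marrow-derived macrophages, differentiated with 10% M-CSF during 5 days, the same genotypes were given IL-4 at 10 ng/mL over 6 hours or left untreated. The series addresses how macrophages that lack creatine change their transcripts as they polarize, and Slc6a8 encodes the X-linked creatine transporter. Ages, the number of animals behind a library and the design of the Slc6a8 allele are not given in the sources used here, so libraries of 1 genotype may share an animal.

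The Ifit proteins are built of tetratricopeptide repeats and act against viruses inside the cell. Ifit1 binds viral RNA whose cap lacks ribose methylation, Ifit2 protects mice against viruses of the nervous system, and human IFIT3 is known to bind and stabilise IFIT1. Their genes are classic type I interferon targets. Interferon alpha or beta activates ISGF3, a complex that includes Stat2 and Irf9 and binds a DNA element called ISRE, whereas IFN-gamma acts mainly through another element called GAS. IL-4 signals through Stat6.

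The 3 genes lie in 1 cluster with 3 paralogs on chromosome 19, chr19:34550550-34662981 on GRCm38.p6, a span of 112.43 kb. Ifit2 occupies chr19:34550550-34576534, Ifit3 chr19:34583119-34588982 and Ifit1 chr19:34640889-34650009. The paralogs are Ifit3b at chr19:34607530-34613403, Ifit1bl2 at chr19:34617046-34640827 and Ifit1bl1 at chr19:34592888-34662981. DNA before annotated transcript starts is shown because the interferon elements named above are read from it. For Ifit2, Ifit3 and Ifit3b these starts lie inside the gene spans given above, so the printed Ifit3 and Ifit3b stretches lie within those spans. The letters come from RefSeq promoter windows (GRCm38.p6, plus strand, 5′ to 3′), and capitals mark matches to the ISRE core GAAANNGAAA, read here as its complement TTTCNNTTTC. The stretches cover chr19:34640765-34640833 for Ifit1, chr19:34583353-34583436 for Ifit3 and chr19:34607749-34607832 for Ifit3b.
Ifit1: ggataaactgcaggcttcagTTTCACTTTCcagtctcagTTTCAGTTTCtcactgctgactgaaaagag
Ifit3: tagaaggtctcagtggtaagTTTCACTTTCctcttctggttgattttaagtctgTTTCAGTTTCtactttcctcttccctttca
Ifit3b: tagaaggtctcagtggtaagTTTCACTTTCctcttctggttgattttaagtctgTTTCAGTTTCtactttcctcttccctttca

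Ifit1 held 2 such matches, at 104 to 95 and 85 to 76 bases before the transcript start of its window. Ifit3 held 2, at 156 to 147 and 122 to 113 bases before that of its own window, which lies inside the Ifit3 span. The printed Ifit3 and Ifit3b stretches have the same 84 letters. Both strands were searched over the 250 bases before each such transcript start. There 2 or more matches were found in 0.18% of 32851 windows of that length, with at least 1 in 2.98%. Neither of the 2 Ifit2 windows, chr19:34550444-34550743 and chr19:34550838-34551137, matched the ISRE core. Both have their transcript start inside the Ifit2 span, and bases before chr19:34550444 were not searched. The first held 1 match to the GAS core TTCNNNGAA, at chr19:34550453-34550461, which is 241 to 233 bases before that window's transcript start. This motif was found in 7.02% of windows. The second window of Ifit1bl2, read on the minus strand, contains the same 2 elements as the Ifit1 stretch. These are letter matches and not measured binding. The ISRE core was found in 8 of 23 ISGF3 targets with a window (34.8%) and in 6 of 17 GAS-driven targets (35.3%), against 3.46% of all genes, so this match did not separate those lists.

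Total expected counts per library were 10812678 to 11065427 in peritoneal and 20553654 to 21221526 in bone marrow-derived macrophages. The unit of level is FPKM, fragments scaled to transcript length and to library size, as the authors deposited it. Slc6a8 was at 0.18 and 0.73 FPKM in IFN-gamma-treated and untreated KO peritoneal cells, against 39.52 and 163.54 FPKM in WT cells, and at 1.15 and 1.71 FPKM in IL-4-treated and untreated KO bone marrow-derived cells, against 87.92 and 97.34 FPKM in WT cells. All 8 macrophage markers (such as Adgre1, Csf1r and Lyz2) reached 1 FPKM in both cell types. Of the 4 resident peritoneal markers, Gata6 was at 3.37 to 5.87 FPKM in peritoneal cells. The 4 summed to 18.67 FPKM in KO and 19.65 FPKM in WT peritoneal cells with IFN-gamma, and to 9.51 and 9.21 FPKM in untreated KO and WT cells. In both genotypes 2 of the 4 were higher and 2 lower with IFN-gamma.

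IFN-gamma induced all 3 Ifit genes in peritoneal macrophages of both genotypes, and after it all 3 stood higher in KO than in WT cells. Ifit2 was at 202.68 FPKM in KO cells with IFN-gamma and 0.71 FPKM in KO cells without, and at 47.98 FPKM in WT cells with IFN-gamma and 0.26 FPKM in WT cells without. For Ifit1 the KO values were 50.74 FPKM with IFN-gamma and 0.41 FPKM untreated, and the WT values 6.55 FPKM with IFN-gamma and 0.35 FPKM untreated. Ifit3 reached 30.24 FPKM in treated and 0.22 FPKM in untreated KO cells, and 2.64 FPKM in treated and 0.19 FPKM in untreated WT cells. The order was the same for each gene: the KO library with IFN-gamma was highest, the WT library with IFN-gamma second, and both untreated libraries were below 1 FPKM. The genes therefore passed the filter used for pairwise ratios, a mean of at least 1 FPKM over the 4 libraries, through their IFN-gamma libraries alone. In bulk RNA, fewer cells expressing a gene and less RNA per cell cannot be told apart.

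**Figure D1:**
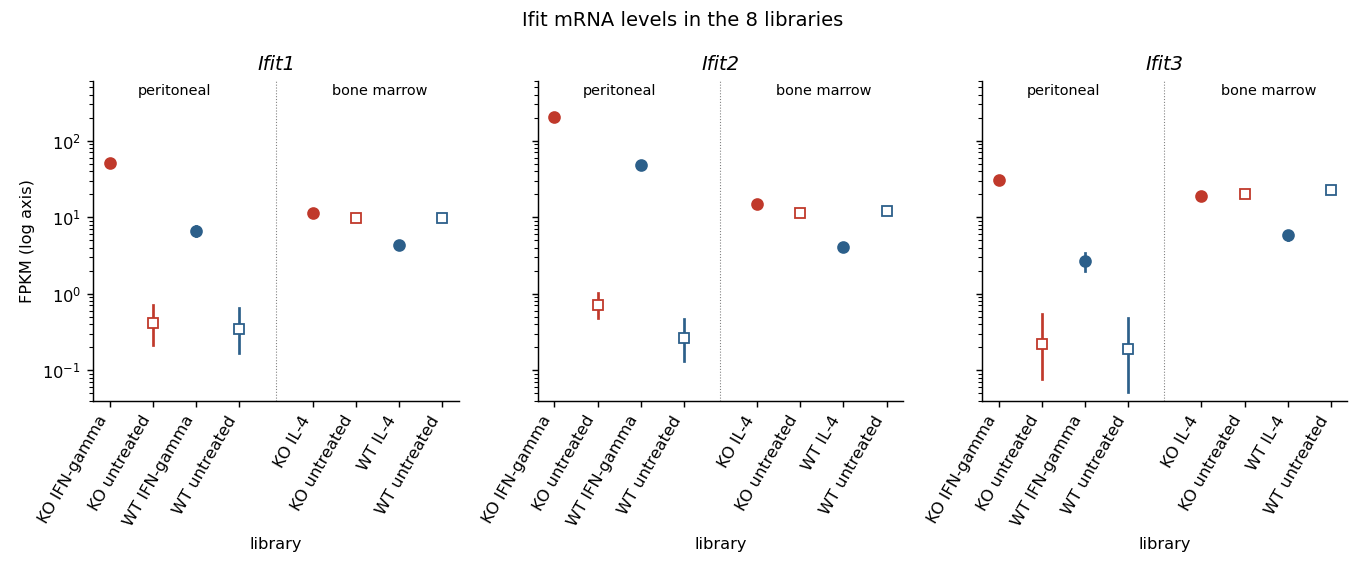
Level of Ifit1, Ifit2 and Ifit3 in each library, in FPKM on a log axis. Filled circles are cytokine-treated and open squares untreated libraries, red is KO and blue WT, and vertical lines are 95% intervals for counting error only. In peritoneal cells KO with IFN-gamma is highest for every gene (202.68 FPKM for Ifit2), and in bone marrow-derived cells WT with IL-4 is lowest (4.11 FPKM for Ifit2).

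The induction was read from few untreated counts, so its size is imprecise. As a ratio of CPM, expected counts scaled to the library total, Ifit1 increased 122-fold in KO cells (95% interval 69.8 to 237) and 18.8-fold in WT cells (9.98 to 39.8). Ifit3 increased 132-fold in KO cells (56.2 to 407) and 14.2-fold in WT cells (5.25 to 53.7). The Ifit2 ratio was 285 in KO cells (200 to 419) and 188 in WT cells (105 to 377). These exact intervals cover counting error only, not differences between cultures, and PCR copies of a fragment are counted as if each were a separate molecule. By the log2 ratio of FPKM + 1, all 3 genes passed 2-fold in both genotypes, where 7.27% of genes in KO and 5.94% in WT cells were 2-fold higher and 6.6% in KO and 4.56% in WT cells lower. Setting the 2 libraries with IFN-gamma against the 2 without, edgeR's additive fit called all 3 genes higher. The log2 change was 8.07 for Ifit2 (SE 0.18, adjusted p = 8.64e-06), 6.20 for Ifit1 (SE 0.45, adjusted p = 0.000322) and 6.32 for Ifit3 (SE 0.47, adjusted p = 0.000329). Of all 12052 genes tested, 17.2% were called higher and 14.9% lower.

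Untreated KO and WT peritoneal cells could not be told apart for Ifit1 and Ifit3 at this depth. Ifit1 had 12.00 expected counts in KO and 9.92 in WT cells, a ratio of 1.19 (0.47 to 3.06), and Ifit3 had 4.70 in KO and 4.02 in WT cells, a ratio of 1.24 (0.266 to 6.23). Ifit2 had 31 counts in untreated KO cells and 11 in untreated WT cells, a ratio of 2.79 (1.36 to 6.14). None of the 3 passed 2-fold as a ratio of FPKM + 1, but with both libraries below 1 FPKM none could, so this ratio decides nothing here. Over all genes 0.356% passed it upwards and 0.422% downwards. The Ifit2 counting intervals in FPKM were 0.482 to 1.01 in KO and 0.13 to 0.465 in WT cells, so of the 3 genes Ifit2 was the 1 whose untreated libraries stood apart.

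After IFN-gamma the KO library exceeded the WT library 11.5-fold for Ifit3 (8.78 to 15.3), 7.73-fold for Ifit1 (6.65 to 9.03) and 4.22-fold for Ifit2 (4.03 to 4.43). As log2 ratios of FPKM + 1 these differences were 3.10, 2.78 and 2.06, ranking 6, 14 and 35 from the highest of 10670 genes, whose median was -0.02. All 3 passed 2-fold, as did 1.56% of all genes upwards and 0.89% downwards. With 1 library a group this pair has no test. The edgeR genotype term, which sets both KO against both WT libraries over the 2 treatments, called Ifit2, which rose by 2.02 (SE 0.16, adjusted p = 0.0493). Ifit1 (2.73, SE 0.38, adjusted p = 0.12) and Ifit3 (3.36, SE 0.37, adjusted p = 0.0841) missed the threshold, and 0.0249% of genes were called higher and 0.0083% lower. The Ifit2 call was lost among protein-coding genes alone (edgeR adjusted p = 0.0584), with total counts in place of TMM scaling (0.0944) and with limma (0.367), and held with DESeq2 (7.27e-11) and without the filter on low counts (0.00385).

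The difference between the genotypes' IFN-gamma responses was clear beyond counting error for Ifit1 and Ifit3, but not for Ifit2. The KO response divided by the WT response was 6.52 for Ifit1 (2.48 to 16.7) and 9.31 for Ifit3 (1.78 to 44.3). For Ifit2 it was 1.52 (0.686 to 3.1), an interval that includes 1. The value of Ifit2 depends on the scale: the KO response minus the WT response was 1.62 as log2 of FPKM plus 1, 0.91 with a pseudocount of 0.1 and 0.67 as TMM-scaled CPM. On the first of these scales all 3 genes passed 2-fold, as did 1.51% of genes upwards and 0.834% downwards. No test of this interaction is possible with 4 libraries in 4 groups.

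**Figure D2:**
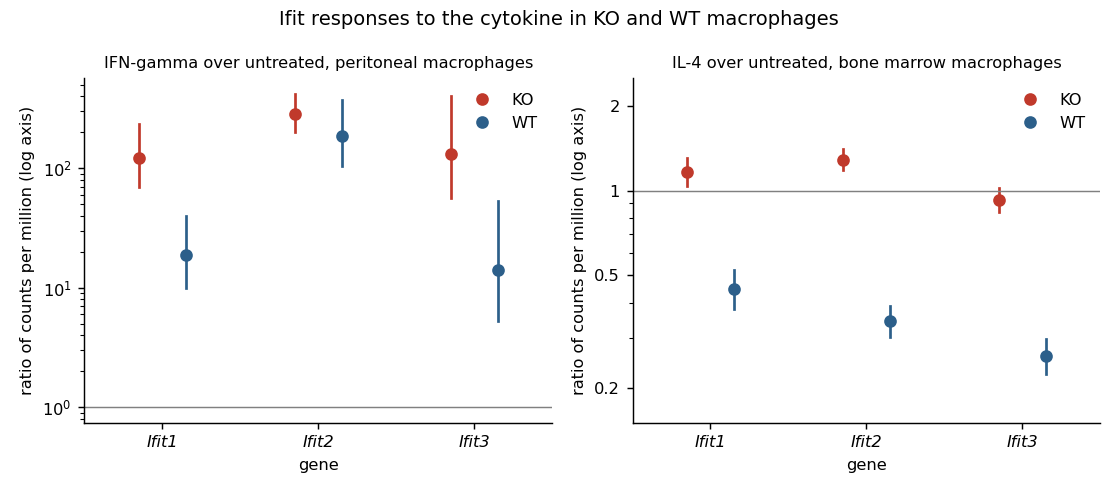
Cytokine response of each gene as the ratio of CPM, treated over untreated, on a log axis, with KO in red left of WT in blue; vertical lines are 95% intervals for counting error only and the grey line marks a ratio of 1. Left, with IFN-gamma, the KO and WT intervals are apart for Ifit1 (69.8 to 237 and 9.98 to 39.8) and overlap for Ifit2. Right, with IL-4, the WT ratios lie between 0.258 and 0.446 and the KO ratios between 0.926 and 1.28.

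In bone marrow-derived macrophages the WT library with IL-4 stood apart from the other 3. Ifit3 was at 18.72 FPKM in KO cells with IL-4 and 20.22 FPKM in KO cells without, and at 5.79 FPKM in WT cells with IL-4 and 22.43 FPKM in WT cells without. Ifit2 was at 14.67 FPKM with IL-4 and 11.43 FPKM untreated in KO cells, and at 4.11 FPKM with IL-4 and 11.96 FPKM untreated in WT cells. Ifit1 was at 11.47 FPKM with IL-4 and 9.87 FPKM untreated in KO cells, and at 4.31 FPKM with IL-4 and 9.69 FPKM untreated in WT cells. For each gene the IL-4-treated WT library was lowest, and its counting interval did not meet that of any other library. Neighbours among the other 3 libraries overlapped within counting error, except that Ifit2 in KO cells with IL-4 lay above untreated WT and KO cells.

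The WT ratio of IL-4 to untreated CPM was 0.258 for Ifit3 (0.223 to 0.298), 0.344 for Ifit2 (0.303 to 0.389) and 0.446 for Ifit1 (0.381 to 0.521). As log2 ratios of FPKM plus 1 these were -1.79, -1.34 and -1.01, ranking 8, 21 and 48 from the lowest of 10906 genes, whose median was -0.04. All 3 were at least 2-fold lower, as were 0.449% of all genes, with 1.27% at least 2-fold higher. In KO cells the same ratios were 0.926 for Ifit3 (0.84 to 1.02), 1.28 for Ifit2 (1.18 to 1.4) and 1.16 for Ifit1 (1.04 to 1.3). None of the 3 moved by 2-fold in KO cells, where 1.27% of all genes were 2-fold higher and 0.339% lower. The lower Ifit level with IL-4 was thus read in WT cells and rests on that 1 library.

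Untreated KO and WT bone marrow-derived cells had close Ifit levels. Their ratio of CPM was 1.02 for Ifit1 (0.904 to 1.15), 0.956 for Ifit2 (0.874 to 1.04) and 0.901 for Ifit3 (0.82 to 0.989), and none passed 2-fold, as did 0.156% of genes upwards and 0.248% downwards. After IL-4 the KO library exceeded the WT library 3.57-fold for Ifit2 (3.16 to 4.04), 3.24-fold for Ifit3 (2.8 to 3.76) and 2.65-fold for Ifit1 (2.28 to 3.1). In log2 ratios of FPKM plus 1, these 3 differences ranked 9, 10 and 18 from the highest, and 0.385% of genes were at least 2-fold higher and 0.257% lower. The KO response divided by the WT response was 3.73 for Ifit2 (3.21 to 4.35), 3.59 for Ifit3 (3.01 to 4.29) and 2.6 for Ifit1 (2.14 to 3.17). All 3 passed 2-fold on the FPKM + 1 scale too, as did 0.413% of genes upwards and 0.275% downwards.

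The additive edgeR fit called none of the 3 genes in bone marrow-derived cells. The IL-4 term was -0.87 for Ifit3 (SE 0.30, adjusted p = 0.0672), -0.42 for Ifit2 (SE 0.31, adjusted p = 0.377) and -0.36 for Ifit1 (SE 0.23, adjusted p = 0.323), where 12.0% of 12879 genes were called higher and 9.23% lower. The genotype term was 0.66 for Ifit1 (SE 0.23, adjusted p = 0.16), 0.79 for Ifit2 (SE 0.31, adjusted p = 0.208) and 0.62 for Ifit3 (SE 0.30, adjusted p = 0.318), where 1.51% were called higher and 3.68% lower. At an unadjusted p under 0.05, edgeR had 1 of 3 genes in the IL-4 term and 2 of 3 in the genotype term, limma had 1 and 0, DESeq2 had 0 and 0, and neither limma nor DESeq2 called any. Of all genes, 33.6% (edgeR), 33.7% (limma) and 10.8% (DESeq2) lay under that p in the IL-4 term, and 17.7%, 15.1% and 3.85% in the genotype term, so 1 of 3 is near the background. An additive term averages the KO and WT responses. Without the filter on low counts, edgeR called all 3 genes in both terms, with the largest adjusted p at 0.017.

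**Figure D3:**
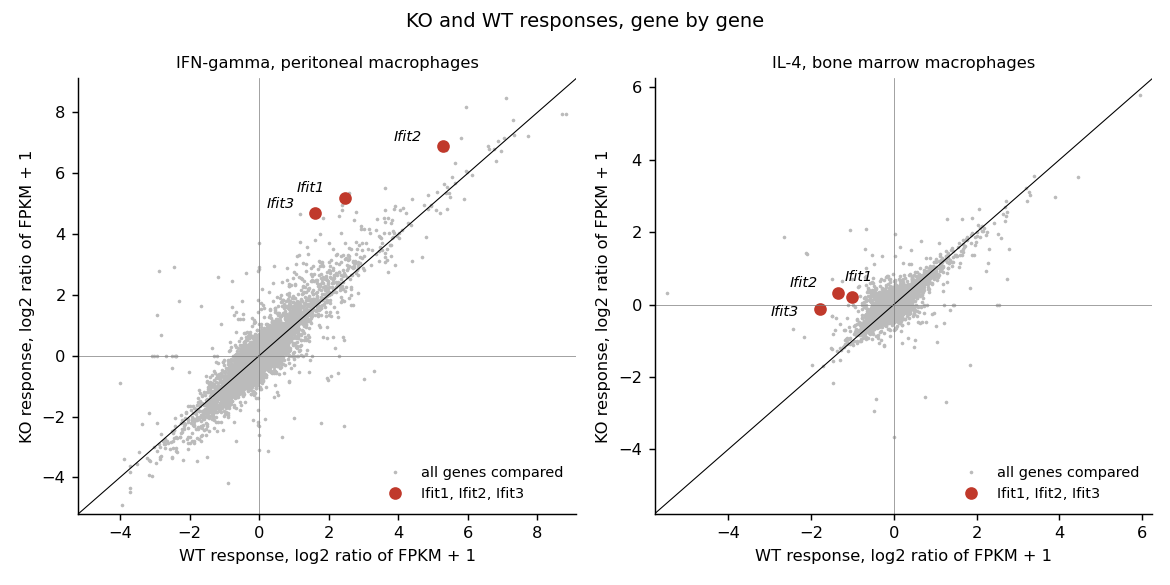
KO response against WT response for every gene compared, as log2 ratios of FPKM plus 1, treated over untreated; grey points are all genes, red points the 3 Ifit genes and the black line marks equal responses. All 3 lie above the line in both panels, though the IFN-gamma excess of Ifit2, 1.62 here, is 0.67 as TMM-scaled CPM, and in the IL-4 panel they lie at -1.79 to -1.01 on the WT axis and -0.11 to 0.33 on the KO axis.

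The balance among the 3 genes differed between the cell types as listed. With IFN-gamma Ifit2 led, at 3.99 times the FPKM of Ifit1 in KO and 7.33 times in WT peritoneal cells, and at 6.7 times that of Ifit3 in KO and 18.2 times in WT cells. In bone marrow-derived cells the 4 libraries had 0.954 to 1.28 times as much Ifit2 as Ifit1 and 0.533 to 0.784 times as much Ifit2 as Ifit3, so Ifit3 was the highest of the 3 per length. The summed level of the 3 genes was 283.66 FPKM in KO and 57.17 FPKM in WT peritoneal cells with IFN-gamma, with 1.34 and 0.80 FPKM in untreated KO and WT cells. For bone marrow-derived cells the sum was 44.86 FPKM in KO and 14.21 FPKM in WT cells with IL-4, and 41.52 and 44.08 FPKM in untreated KO and WT cells. The untreated bone marrow-derived cells thus held levels that untreated peritoneal cells did not, but the cell types differ in source, culture and depth and were not tested against each other. Among all listed genes, Ifit2 in KO cells with IFN-gamma ranked 335 of 15008, its highest place in the series.

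The 3 paralogs were low. Ifit3b was at 4.61 FPKM with IFN-gamma and 0.06 FPKM untreated in KO peritoneal cells, and at 0.31 FPKM with IFN-gamma and 0.00 FPKM untreated in WT cells. Bone marrow-derived cells had it at 2.02 FPKM with IL-4 and 2.91 FPKM untreated in the KO, and at 0.72 FPKM with IL-4 and 3.53 FPKM untreated in WT cells. The high and low libraries of Ifit3b were those of Ifit3, and it fell with IL-4 in the additive edgeR fit (-1.21, SE 0.30, adjusted p = 0.0191). That call was lost with DESeq2 (adjusted p = 0.0611) and limma (0.0506). Ifit3 and Ifit3b share 51.2% of the 50-base stretches of the Ifit3 transcript, so reads can be split between them and their separate values are uncertain. Summed, Ifit3 and Ifit3b were 11.8-fold higher in KO than in WT cells after IFN-gamma (9.18 to 15.5) and 3.18-fold higher after IL-4 (2.77 to 3.67). Ifit1 shares 7.13% of its stretches with other Ifit genes and Ifit2 none, and the Ifit2 counts were whole numbers in 8 of 8 libraries.

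Ifit1bl1 reached 1.28 FPKM in KO cells with IFN-gamma against 0.16 FPKM in WT cells with it, and was listed at 0 in both untreated peritoneal libraries. Ifit1bl2 stayed at 0.03 to 0.09 FPKM in the 4 peritoneal libraries, although its second window holds the same 2 ISRE cores as Ifit1. Of the nearest expressed genes outside the cluster, Ch25h, cholesterol 25-hydroxylase, had the same order of peritoneal libraries as the Ifit genes. It was at 8.29 FPKM in KO and 6.02 FPKM in WT cells with IFN-gamma, and at 0.54 and 0.21 FPKM in untreated KO and WT cells. Among bone marrow-derived libraries its order was another, with 2.2 FPKM with IL-4 and 2.31 FPKM untreated in KO cells, and 3.67 FPKM with IL-4 and 2.45 FPKM untreated in WT cells. Lipa, lysosomal acid lipase, was at 550.94 and 633.13 FPKM in IFN-gamma-treated KO and WT cells, and at 868.49 and 882.31 FPKM in untreated KO and WT cells. On the other side Slc16a12 did not exceed 0.05 FPKM, and the 3 remaining neighbours, Gm31417, Gm46654 and Gm18425, have no values here.

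**Figure D4:**
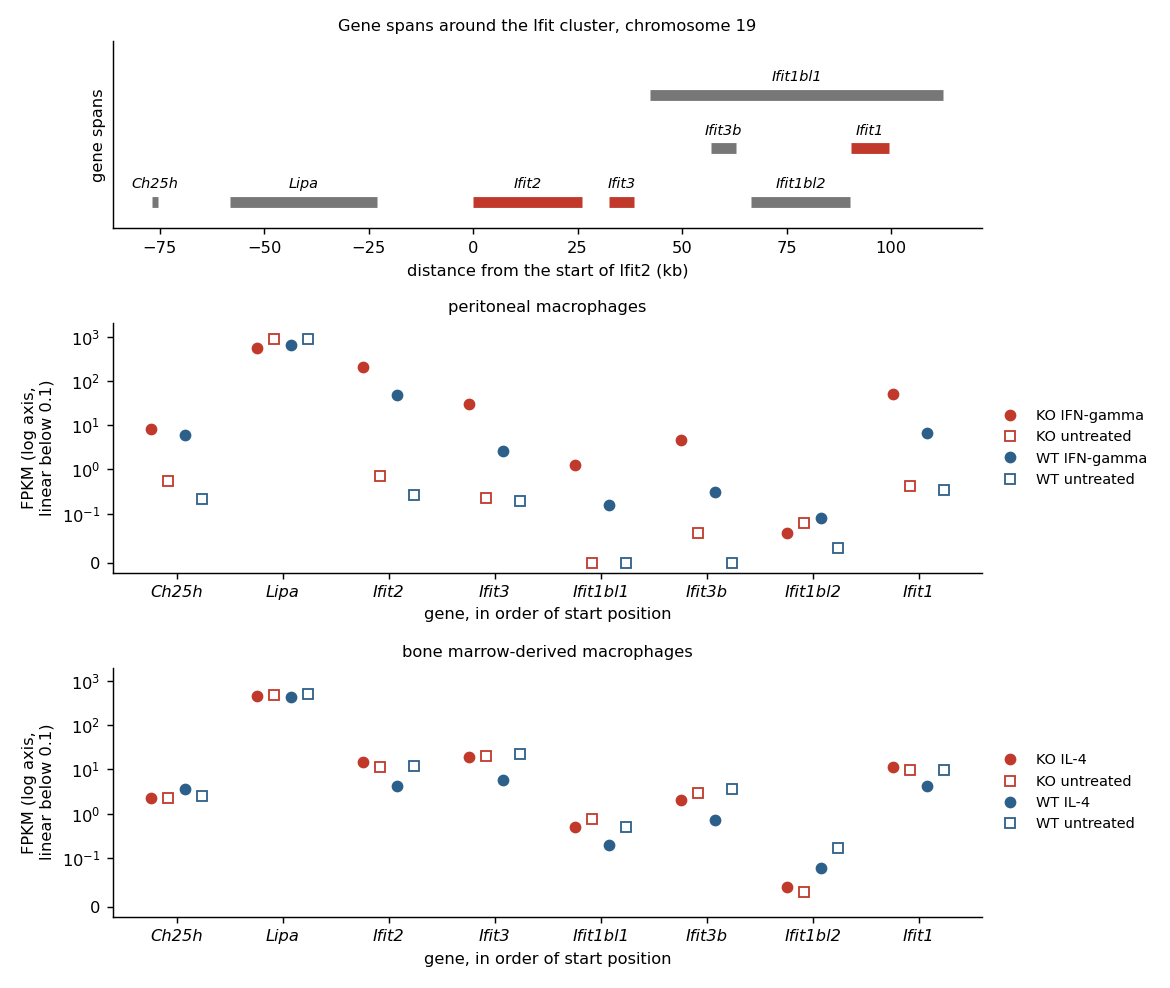
Top, spans of the Ifit genes (members in red) and of 2 neighbours, in kb from the start of Ifit2. Middle and bottom, their FPKM in the 4 libraries of each cell type, on a log axis that is linear below 0.1, with circles for cytokine-treated and squares for untreated libraries, KO in red and WT in blue. Ifit3b, Ifit1bl1 and Ch25h have the KO library with IFN-gamma highest among peritoneal libraries, as the 3 members do, and with IL-4 Ch25h is at 2.2 FPKM in KO and 3.67 FPKM in WT cells.

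The lists that follow overlap: ISGF3 targets share 1 gene with the STAT and IRF factors (Irf7), 2 with the feedback inhibitors (Usp18 and Isg15) and 5 with the sensors (Ddx58, Ifih1, Dhx58, Eif2ak2 and Zbp1). GAS-driven targets share 3 genes with the STAT and IRF factors and 1, Socs1, with the feedback inhibitors. Upstream of the Ifit genes, the interferon ligands were at or near 0. Of 18 type I interferon genes looked up, 3 were listed in any library. Ifnb1, interferon beta, was at 0.37 FPKM in KO peritoneal cells with IFN-gamma and at 0 in the other 3 peritoneal libraries. Among bone marrow-derived libraries Ifnb1 was at 0.38 FPKM in KO cells with IL-4, 0.13 FPKM in untreated WT cells and 0 in the other 2. The 2 libraries with the highest Ifnb1 are thus the cytokine-treated KO libraries, at levels too low for a comparison, and the part of the ligand in the Ifit levels was not tested. Ifna5 was at 0.09 FPKM in KO cells with IL-4 and Ifnz at 0.06 FPKM in untreated KO peritoneal cells.

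The receptor chains and their kinases differed little between the genotypes. Of 7 genes, 4 rose with IFN-gamma in the additive edgeR fit (Ifnar2, Jak1, Jak2 and Tyk2), and Jak2 and Ifngr2 rose with IL-4. Over all genes edgeR called 17.2% higher and 14.9% lower with IFN-gamma, and 12.0% higher and 9.23% lower with IL-4. The median difference of KO from WT cells was 0.07 after IFN-gamma and -0.02 after IL-4 (log2 of FPKM plus 1). The genotype term called none in either cell type, with 2 at an unadjusted p under 0.05 in peritoneal and 0 in bone marrow-derived cells; limma had 3 and 0, DESeq2 had 0 and 0, and neither called any. Over all genes the peritoneal shares under that p were 13.9% (edgeR), 12% (limma) and 2.36% (DESeq2), beside the bone marrow-derived shares given above, and the counts below are to be read against them. Ifnar1, a chain of the type I receptor, was at 18.92 FPKM in KO and 19.74 FPKM in WT cells with IFN-gamma.

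Among 11 STAT and IRF factors, 9 rose with IFN-gamma, against 17.2% of all genes. After it 2 of the 11 stood at least 2-fold higher in KO than in WT cells, as did 1.56% of all genes, with 0.89% lower. Irf7, a factor that amplifies interferon production, was at 132.56 FPKM in KO and 26.79 FPKM in WT cells with IFN-gamma, and at 3.26 and 4.30 FPKM in untreated KO and WT cells. Stat2, an ISGF3 subunit, was at 82.45 FPKM in KO and 40.64 FPKM in WT cells with IFN-gamma, and at 6.24 and 6.02 FPKM in untreated KO and WT cells. Irf9, which gives ISGF3 its DNA specificity, was closer, at 26.72 FPKM in KO and 19.95 FPKM in WT cells with IFN-gamma. In bone marrow-derived cells Stat2 was at 41.70 FPKM with IL-4 and 30.74 FPKM untreated in KO cells, and at 25.04 FPKM with IL-4 and 30.23 FPKM untreated in WT cells. With IL-4, 4 of the 11 rose (Irf1, Irf2, Irf5 and Irf7) and Irf8 fell, where 12.0% of all genes were called higher and 9.23% lower. The genotype term called none in either cell type, with 2 and 4 of 11 at an unadjusted p under 0.05; limma had 0 and 3, DESeq2 had 1 and 0, and neither called any.

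Feedback inhibitors split. Usp18, which turns off type I receptor signalling, was at 66.32 FPKM in KO and 9.39 FPKM in WT cells with IFN-gamma, and at 3.25 and 2.09 FPKM in untreated KO and WT cells. Usp18 in bone marrow-derived cells was at 17.25 FPKM with IL-4 and 12.78 FPKM untreated in KO cells, and at 7.97 FPKM with IL-4 and 12.69 FPKM untreated in WT cells. Socs1, which blocks Janus kinases, was at 99.79 FPKM in KO and 90.12 FPKM in WT peritoneal cells with IFN-gamma. In all, 7 of 8 rose with IFN-gamma and 2 with IL-4 (Socs1 and Cish), against 17.2% and 12.0% of all genes. The edgeR genotype term called none in either cell type, with 3 and 3 of 8 at an unadjusted p under 0.05; limma had 3 and 1 and called none, and DESeq2 had 1 and 0 and called 1 of the peritoneal genes.

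Of 12 nucleic acid sensors, 8 rose with IFN-gamma and Tlr7 fell, where 17.2% of all genes were called higher and 14.9% lower. After IFN-gamma 4 were at least 2-fold higher in KO than in WT cells, each of them also an ISGF3 target, and the median difference was 0.78. Over all genes 1.56% were 2-fold higher and 0.89% lower, with a median of -0.02. The largest differences were those of the RNA sensors Ddx58 (RIG-I), at 23.82 FPKM in KO and 5.65 FPKM in WT cells, and Ifih1 (MDA5), at 34.21 FPKM in KO and 9.24 FPKM in WT cells. After IL-4 all 12 had the higher value in KO cells, with a median difference of 0.26 against 0.01 over all genes. The share of all genes with the higher value in KO cells was not counted. None of the 12 reached 2-fold, as did 0.385% of all genes upwards and 0.257% downwards. The edgeR genotype term called none in either cell type, with 6 and 8 of 12 at an unadjusted p under 0.05; limma had 3 and 5, DESeq2 had 3 and 0, and neither called any.

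ISGF3 targets other than the Ifit genes, such as the Mx and Oas antiviral genes, mostly had their libraries in the order of the Ifit genes. Of the 31 listed, 29 had the KO library with IFN-gamma highest and the WT library with IFN-gamma second, the exceptions being Isg20 and Ddx60. The WT library with IL-4 was lowest for 28 of 31, the exceptions being Irf7, Zbp1 and Ifi27l2a. The share of all genes with either order was not counted. Of 32 listed as targets, 31 had values here, and 28 of these rose with IFN-gamma, against 17.2% of all genes. Of the 30 compared as pairs, 25 were at least 2-fold higher in KO than in WT cells after IFN-gamma. Over all genes 1.56% were 2-fold higher and 0.89% lower. The median difference was 1.76 against -0.02 over all genes. Mx1 was at 29.11 FPKM in KO and 2.30 FPKM in WT cells with IFN-gamma, and Rsad2, which encodes viperin, at 48.41 FPKM in KO and 5.36 FPKM in WT cells. The genotype term in peritoneal cells called none of the 31, with 25 at an unadjusted p under 0.05, against 13.9% of all genes; limma had 10 and called none, and DESeq2 had 10 and called 1.

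After IL-4, the KO value exceeded the WT value for 31 of 31 ISGF3 targets, with a median difference of 0.82 against 0.01 over all genes. For 10 of them it was at least 2-fold higher, as for 0.385% of all genes, with 0.257% lower. The WT response to IL-4 was below 0 for 30 of 31, with a median of -0.53 against -0.04 over all genes. The KO response was above 0 for 30 of 31, with a median of 0.33 against -0.01. The shares of all genes on these sides of 0 were not counted. Isg15, a ubiquitin-like antiviral protein gene, was at 31.71 FPKM with IL-4 and 18.41 FPKM untreated in KO cells, and at 10.31 FPKM with IL-4 and 17.37 FPKM untreated in WT cells. In edgeR's additive fits 2 of 31 rose with IL-4 (Irf7 and Zbp1) and Cxcl10 fell, where 12.0% of all genes were called higher and 9.23% lower. Oas1a rose in KO cells (0.60, adjusted p = 0.0259), where 1.51% of all genes were called higher. For the IL-4 term limma called 0 higher and 1 lower and DESeq2 none, and for the genotype term neither called any. In the IL-4 term 6 of 31 lay under an unadjusted p of 0.05 with edgeR, 2 with limma and 1 with DESeq2. All-gene shares were 33.6%, 33.7% and 10.8%. In the genotype term 22 of 31 lay under that p with edgeR, 14 with limma and 1 with DESeq2. All-gene shares there were 17.7%, 15.1% and 3.85%.

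GAS-driven IFN-gamma targets, such as the guanylate-binding protein genes, had close levels in KO and WT peritoneal cells for most members. All 22 rose with IFN-gamma, against 17.2% of all genes, with a median response of 5.18 in KO and 5.11 in WT cells. After IFN-gamma the median difference of KO from WT cells was 0.09, with 2 genes at least 2-fold higher (Cxcl9 and Nos2) and Fcgr1 at least 2-fold lower, where 1.56% of all genes were higher and 0.89% lower. The peritoneal library order of the Ifit genes was held by 17 of 22, and the WT library with IL-4 was lowest for 12 of 22. The peritoneal genotype term called Cxcl9 and Nos2 higher, 2 of 22 against 0.0249% of all genes, with 6 at an unadjusted p under 0.05; limma had 6 and called none, and DESeq2 had 7 and called 2 higher and 1 lower. Gbp2 was at 3428.48 FPKM in KO and 3400.10 FPKM in WT cells with IFN-gamma, and Iigp1 at 479.11 FPKM in KO and 514.30 FPKM in WT cells. After IL-4 the median over the 19 genes compared was 0.37, with Gbp2 and Ifi47 at least 2-fold higher in KO cells. Over all genes 0.385% were 2-fold higher and 0.257% lower. Gbp2 there was at 7.06 FPKM with IL-4 and 4.51 FPKM untreated in KO cells, and at 2.79 FPKM with IL-4 and 3.32 FPKM untreated in WT cells. In the bone marrow-derived genotype term edgeR called 2 of 21 higher (Gbp2 and Icam1), against 1.51% of all genes and 1 of 31 ISGF3 targets, with 11 at an unadjusted p under 0.05; limma had 10 and DESeq2 4, and neither called any. No test set 1 list against another.

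**Figure D5:**
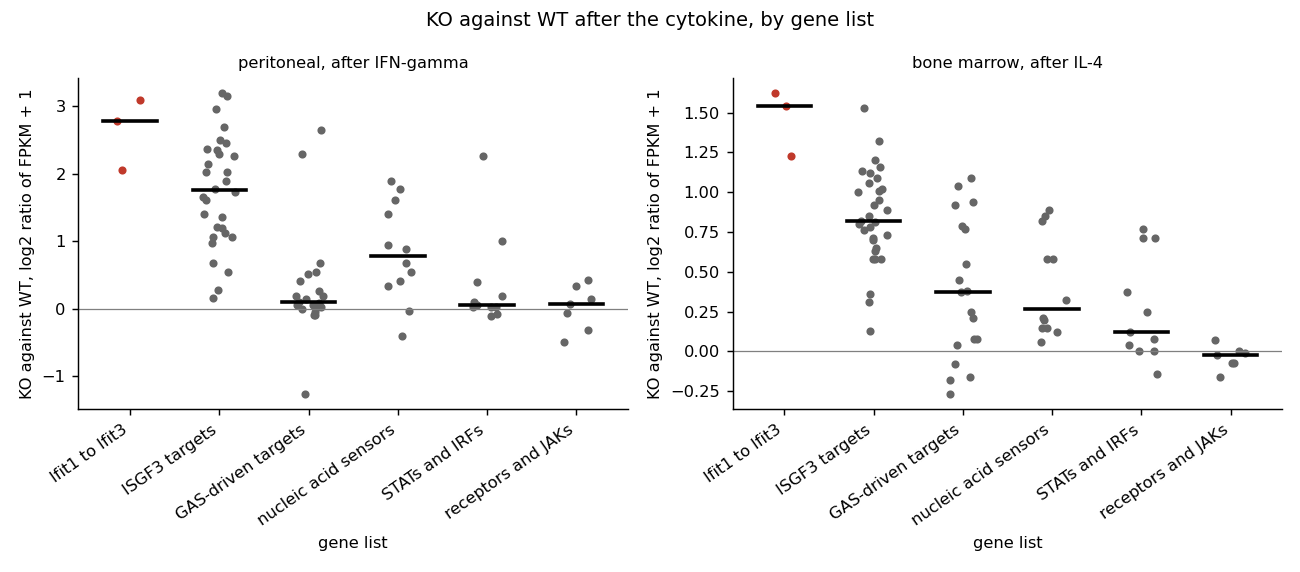
Difference of KO from WT after the cytokine, as the log2 ratio of FPKM plus 1, for each gene of 6 lists; points are genes, black bars medians and the grey line marks 0. After IFN-gamma (left) the medians are 1.76 for ISGF3 targets and 0.09 for GAS-driven targets, and after IL-4 (right) they are 0.82 and 0.37.

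The genes whose pattern over the 8 libraries was most like the mean of Ifit1, Ifit2 and Ifit3 were Slfn1, Ccl5, Rtp4, Ifi205, Isg15, Cfb, Ifi208 and Ifi203. Likeness was the root mean square difference of log2 values centred within each cell type. It was 0.30 for Slfn1 and 0.50 for Ifi203, against a median of 1.76 over 10187 genes, and it was 0.21 for Ifit1, 0.46 for Ifit3 and 0.64 for Ifit2 themselves. Pearson's r over these 8 libraries, which share processing but not depth, was 0.96 to 0.99 for the 8 genes. As these genes were picked for likeness over the same libraries, a high r follows from the choice. Slfn1 was at 55.52 FPKM in KO and 13.04 FPKM in WT cells with IFN-gamma, and Ccl5, a chemokine gene, at 86.48 FPKM in KO and 10.97 FPKM in WT cells. With IL-4, Slfn1 was at 2.40 FPKM in KO and 0.54 FPKM in WT cells. The IL-4 pattern was shared unevenly. The KO response minus the WT response to IL-4, on the log2 scale of FPKM plus 1, ranged over the 8 genes from 0.22 for Ccl5 and 0.35 for Cfb to 1.45 for Isg15. Promoter windows were at hand for 5 of the 8 genes, and 4 of the 5 held an ISRE core, against 3.46% of all genes. Ifi205, Ifi208 and Ifi203, all on chromosome 1, held 1 match each, Isg15 held 3 and Slfn1 held 0. The genes were picked by their values here, so this share is no test of the motif.

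Some summed markers of other cell types moved with the Ifit levels in peritoneal cells. The 5 markers of plasmacytoid dendritic cells, which make much type I interferon, summed to 9.68 FPKM in KO and 7.79 FPKM in WT peritoneal cells with IFN-gamma, and to 6.32 and 6.63 FPKM in untreated KO and WT cells. Their sum was 15.07 to 17.80 FPKM in bone marrow-derived cells. Of the 5, Siglech and Ccr9 did not exceed 0.10 FPKM in any library and Klk1 was at 0 in peritoneal cells. The summed level of 5 dendritic cell markers was 15.43 FPKM in KO and 31.58 FPKM in WT cells with IFN-gamma, and 0.85 and 0.65 FPKM in untreated KO and WT cells, nearly all of it Clec9a, with Flt3 at 0. The summed level of 5 fibroblast and mesothelial markers was 107.95 FPKM in KO and 230.28 FPKM in WT bone marrow-derived cells with IL-4, and 126.72 and 244.25 FPKM in untreated KO and WT cells, with Msln at 0. The edgeR genotype term called lower in KO cells all 3 of these genes that it tested there, against 3.68% of all genes. DESeq2 called 2 of 4 lower and limma 2 of 3. Erythroid markers (3 genes) summed to 83.75 FPKM in KO and 62.55 FPKM in WT peritoneal cells with IFN-gamma, and to 56.48 and 40.58 FPKM in untreated KO and WT cells. T and NK cell markers (4 listed) summed to 3.99 FPKM in KO and 2.19 FPKM in WT peritoneal cells with IFN-gamma, and to 1.41 and 0.79 FPKM in untreated KO and WT cells. In peritoneal cells the plasmacytoid dendritic cell, erythroid, and T and NK cell sums thus had the library order of the Ifit genes. Single markers did not all share it. Of 2 plasmacytoid dendritic cell markers compared as pairs, 1 was higher and 1 lower in KO than in WT cells after IFN-gamma. Just 1 T and NK cell marker reached 1 FPKM there. Peritoneal sums were 3.40 to 5.67 FPKM for B cells, 3.54 to 9.68 FPKM for neutrophils and 5.92 to 10.35 FPKM for eosinophils, basophils and mast cells, with Prg2, Epx and Mcpt8 at 0. The part of these cells in the Ifit differences was not tested.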

How the data were processed

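RNA was measured in 8 libraries, 1 per group, grouped by their labels. The deposited tables hold expected counts (estimated read counts per gene, whole within 0.005 for 70.1% to 77.8% of genes) and FPKM values, both as the authors computed them. Bowtie2 2.2.5, RSEM and mm10 are named in the submitters' processing notes; which version of RSEM was used was not given in the sources used here. Genes absent from 1 table were taken as 0 there. RefSeq (GRCm38.p6) named 18076 of 18125 identifiers, and shared 50-base stretches were counted between GENCODE M21 transcripts.

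From these, library pairs were compared by log2(FPKM + 1) over genes averaging 1 FPKM or more in the 4 libraries (10670 peritoneal, 10906 bone marrow-derived) and by ratios of expected counts scaled to library totals (CPM) with exact conditional 95% intervals. The interval of a ratio of responses, and those of levels, also cover counting error only. Additive fits (genotype and stimulus, 1 residual degree of freedom) used edgeR 4.0.16 (quasi-likelihood, TMM, filterByExpr) on counts rounded to whole numbers, with Benjamini-Hochberg adjustment over all genes and a threshold of 0.05, in R 4.3.3; SEs are the log2 change over the square root of F. They were tested on simulated data. The p-values measure what the additive model leaves unexplained among groups of 1 library, not a spread of replicates, and may be too small where libraries share an animal. edgeR's common biological variation came to 10.4% (peritoneal) and 4.6% (bone marrow-derived). Alternatives were DESeq2 1.42.0, limma 3.58.1, no filter, protein-coding genes alone, total counts, a pseudocount of 0.1, median rescaling and TMM-scaled counts. Other steps used scipy 1.17.1 and numpy 2.4.6, and figures matplotlib 3.10.9, in Python 3.11.15.

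The genes and lists were chosen with earlier results of these data known. Named are the 3 genes, their paralogs, 3 neighbours on each side, the 8 protein-coding genes most like them, and of each list up to 4 members with the largest stimulus term or the largest KO against WT ratio after the cytokine. Examples outside this rule, such as Ifnar1, Irf9 and Socs1, were chosen by role after their values were seen.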

Additional observations from a re-analysis of the deposited data

Results flagged for a closer look

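The IL-4 responses of Ifit1 and Ifit2 pointed in opposite directions in KO and WT bone marrow-derived macrophages, each in 1 library pair per genotype, and this difference was not tested. For Ifit1 the KO response minus the WT response was 1.21 on the log2 scale of FPKM plus 1, with 0.20 in KO and -1.01 in WT cells. For Ifit2 it was 1.68, with 0.33 in KO and -1.34 in WT cells. Counting intervals of the ratios of CPM kept to opposite sides of 1 for both genes, at 1.04 to 1.3 in KO and 0.381 to 0.521 in WT cells for Ifit1, and at 1.18 to 1.4 in KO and 0.303 to 0.389 in WT cells for Ifit2. Ifit3 did not share the opposite signs, since both its responses were below 0, at -0.11 in KO and -1.79 in WT cells. Across pseudocounts and scalings the difference was 1.37 and 1.36 for Ifit1 and 1.88 and 1.88 for Ifit2 with a pseudocount of 0.1 and with TMM-scaled CPM.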

How the results depend on the processing

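No paired analysis was possible because every group holds 1 replicate. None of 210 alternative values changed direction, but some of these are numbers of called genes, which have no direction to change. Of the 210, 162 kept their size or their side of the threshold. Median rescaling moved none of 30 values, and summing paralogs, chosen after seeing the data, none of 20. Median rescaling shifted the all-gene median of the KO IFN-gamma response by -0.11. The cause of the changes below was not tested.

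DESeq2 called 1251 genes higher and 837 lower with IFN-gamma (edgeR 2077 and 1796), 18 and 23 by genotype in peritoneal cells (edgeR 3 and 1), 667 and 404 with IL-4 (edgeR 1542 and 1189), and 47 and 114 by genotype in bone marrow-derived cells (edgeR 195 and 474). Limma called 0 and 0 by genotype in peritoneal cells, with 1277 genes at an unadjusted p under 0.05, and Ifit2 was 1.25 there (adjusted p = 0.367). Limma called 997 genes higher with IL-4, and 63 higher and 182 lower by genotype in bone marrow-derived cells.

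Without the filter edgeR called 26 higher and 26 lower by genotype in peritoneal cells, Ifit1 at 2.72 (adjusted p = 0.0229) and Ifit3 at 3.36 (0.00956) among them. In bone marrow-derived cells it called 527 and 726 by genotype, with Ifit1 at 0.67 (4.51e-06), Ifit2 at 0.80 (2.46e-07) and Ifit3 at 0.64 (6.15e-05), and the IL-4 terms were -0.36 for Ifit1 (0.017), -0.43 for Ifit2 (0.00582) and -0.87 for Ifit3 (1.01e-08). Among protein-coding genes alone 1 gene was called higher by genotype in peritoneal cells, with Ifit2 at 2.02 (0.0584). With total counts it was 1 as well, with Ifit2 at 2.0 (0.0944); in bone marrow-derived cells 364 were called higher by genotype, with Ifit1 at 0.66 (0.0358) and Ifit2 at 0.79 (0.0485), and the IL-4 term of Ifit3 was -0.91 (0.00691).

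With a pseudocount of 0.1 the KO IFN-gamma responses were 6.64, 7.97 and 6.57 for Ifit1, Ifit2 and Ifit3, the WT responses of Ifit1 and Ifit2 were 3.89 and 7.06, and the difference of KO from WT after IL-4 was 1.81 for Ifit2. As TMM-scaled CPM the KO IFN-gamma responses were 7.07, 8.28 and 7.26, the WT responses 4.30, 7.61 and 3.89, the difference after IFN-gamma was 3.54 for Ifit3, and that after IL-4 was 1.83 for Ifit2. A pseudocount understates the fold of genes near 0, as the untreated peritoneal Ifit levels are, and depth limits untreated peritoneal values to between 4.02 and 31 counts.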
